A study of Mus musculus with 217 samples.

Results

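Endothelial cells (ECs) of brain, lung and heart were compared between 168 hr, which is 1 week, after systemic lipopolysaccharide (LPS) and 0 hr. The libraries were chosen by their labels alone. Those labelled 168 hr were set against those labelled 0 hr within each tissue, sequencing runs of 1 library were summed, and libraries with under 3% of their reads on genes were left out. This gave 26 libraries of the 98 in the series, with 5 at 0 hr and 4 at 168 hr in brain, 4 and 4 in lung, and 5 and 4 in heart. The question was how far each endothelium had returned to its baseline and whether any residual difference was seen in all 3 tissues.

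All mice were adults of the genotype Cdh5CreERT2/+; Rpl22HA/+, called RiboTagEC. The Cdh5 promoter drives a tamoxifen-inducible Cre in ECs, and Cre switches on an HA tag on the ribosomal protein Rpl22, so that RNA on EC ribosomes can be pulled from a homogenate of the whole organ. Every group had received tamoxifen by gavage, 5 mg a dose for 4 doses given on alternate days at 4 to 6 weeks of age. The 168 hr mice also received 1 intraperitoneal injection of 10 mg/kg LPS, and the 0 hr mice, the controls, were injected with PBS. LPS is a component of the outer membrane of Gram-negative bacteria and is sensed through Toll-like receptor 4. It switches on NF-kappaB and interferon programs in ECs, which then display adhesion molecules and release chemokines that recruit leukocytes. ECs in adult organs seldom divide, but injured vessels can be repaired by division of the surviving ECs.

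Total counts on genes ran from 3666859 to 43417945 in the 26 libraries, and 3 counts, the floor used here for a gene not detected, stood for 0.0691 to 0.818 CPM (a gene's counts scaled to the total of its library). The share of reads on genes was 57.4% to 70% in brain and heart, but 18.8% to 56.2% at 0 hr and 23.8% to 61% at 168 hr in lung. The file names follow 4 patterns, called library series here. Series 2 has no 168 hr library and series 4 no 0 hr library among those kept, so that only series 1, with 2 libraries against 2 per tissue, holds both groups. The same file names tie the 168 hr libraries of the 3 tissues to 4 mice and the 0 hr libraries to 6 mice, so the tissues are not independent of each other. Among the other times, 1 series 1 mouse labelled 6 hr had brain and heart libraries with LPS-induced genes near the 0 hr level, its lung library held 284457 counts, and heart 72 hr replicate 1 stood near the 0 hr libraries. Only some 168 hr results are also given without that mouse or that heart library. Among these are the cell cycle medians, the lung call count and the ranges of list medians over 6 fits. The 6 hr calls and list medians, the 72 hr heart calls and medians and the lung genes chosen at 6 hr include them. Pan-endothelial genes such as Cdh5 and Pecam1 averaged 6.65 to 9.43 log2 CPM per library over the 34 genes of that list in the 26 libraries, and summed markers of parenchymal cells were also present, for example 5670 to 13000 CPM for 16 cardiomyocyte genes in heart. In bulk RNA, fewer cells of a type and less RNA per cell cannot be told apart.

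In the median, the LPS-responsive genes of all 3 endothelia were back near their 0 hr level by 168 hr. For lung the reading was not separate from the choice of the genes, and single lung genes could hardly be bounded, as described further on. The genes that LPS had raised by 6 hr and those that it had lowered each had a median between −0.14 and 0.11 on the log2 scale at 168 hr. In brain and heart, LPS-responsive genes were chosen in library series 2 (adjusted p under 0.05 and at least 1 on the log2 scale at 6 hr). They were then read in series 1, whose libraries had no part in the choice. In brain, the 770 genes chosen as higher differed from 0 hr by a median log2 of 1.68, 1.43, 0.52 and −0.05 at 24, 48, 72 and 168 hr. The 614 genes chosen as lower differed by −1.37, −1.20, −0.37 and −0.14. In heart, the 2832 higher genes differed by 0.63, 0.29, 0 and −0.09, and the 3114 lower genes by −0.61, −0.41, 0.03 and 0.11. From the fit of all libraries, the 168 hr medians of higher and lower genes were −0.16 and 0.24 in brain and −0.07 and 0.07 in heart.

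In lung, series 2 alone gave 0 genes past the threshold by edgeR's quasi-likelihood test, with 754 of 14768 at an unadjusted p under 0.05. The 436 higher and 388 lower genes were therefore chosen at 6 hr in the fit of all lung libraries, so they share the 0 hr libraries in which they were read. The higher genes differed by a median of 1.84, 1.21, 0.67 and 0.07 on the log2 scale at 24, 48, 72 and 168 hr, and the lower genes by −1.43, −1.22, −0.32 and −0.09. From the fit of all lung libraries the 168 hr medians were −0.22 and 0.15. At 168 hr 61 of the 436 higher genes (14%) lay above a log2 difference of 1, against 10.5% of all 17058 genes. The same shares were 44 of 770 (5.71%) against 4.63% in brain and 77 of 2832 (2.72%) against 4.46% in heart.

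A response score, the mean log2 CPM of the higher genes less that of the lower genes with series 1 at 0 hr set to 0, was computed for every library. In brain the score was 4.75 in the median library at 6 hr, and the 4 libraries at 168 hr scored 0.30, 0.02, 0.08 and −0.02, against −0.02 to 0.33 at 0 hr. The higher genes alone, set to 0 in the same way, were at −0.015, 0.05, 0.17 and 0.17 at 168 hr in brain, against −0.51 to 0.03 at 0 hr, so that 3 of the 4 libraries lay above every 0 hr library. In heart the median was 3.84 at 6 hr, and the libraries at 168 hr scored −0.30, −0.16, −0.19 and −0.28, against −0.39 to 0.01 at 0 hr. In lung the median was 7.66 at 6 hr, and the libraries at 168 hr scored 0.82, −0.36, −0.20 and −0.63, against −0.33 to 0.33 at 0 hr. The lung 6 hr library of the series 1 mouse, with 284457 counts, scored 6.4, but its higher genes alone were at 0.09. Its score thus came from the lower genes. In the other lung libraries at 6 hr the higher genes alone were at 4.14, 3.71 and 2.73. At 168 hr they were at 0.56, −0.21, −0.004 and −0.25 in lung, against −0.19 to 0.28 at 0 hr. The 168 hr scores overlapped the 0 hr scores in each tissue, with lung replicate 1 above the 0 hr range and lung replicates 2 and 5 below it. In heart both series 1 libraries at 168 hr lay below both series 1 libraries at 0 hr, which scored 0.01 and −0.01. At 72 hr the lowest scores were 1.16 in brain and 1.24 in lung, above every 0 hr library, whereas heart 72 hr replicate 1 scored −0.06 and the other heart libraries at 72 hr 0.18, 0.20 and 0.65, above the 0 hr range.

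**Figure D1:**
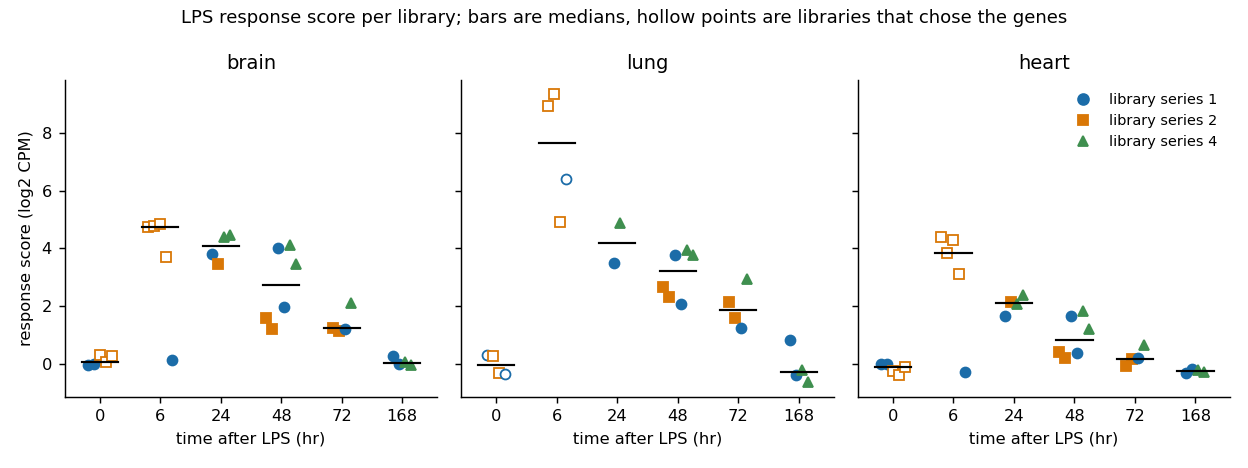
LPS response score (log2 CPM, vertical axis) of each library by time after LPS (hr, horizontal axis) in brain, lung and heart. Bars are medians, symbols mark the library series, and hollow points are libraries that took part in choosing the genes. At 168 hr the points lie between −0.63 and 0.82, beside those at 0 hr, and the point near 0 at 6 hr in brain and heart is the series 1 mouse.

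By gene, edgeR's quasi-likelihood test with Benjamini-Hochberg adjustment and library series as a covariate called 0 of 19234 genes at 168 hr in brain, 2 of 17058 in lung (0.0117%) and 0 of 16024 in heart. At an unadjusted p under 0.05, 556 genes were higher and 272 lower in brain, 245 and 360 in lung, and 502 and 178 in heart. DESeq2 called 2, 30 and 2 genes, and limma-voom called 0, 0 and 0. Both lung genes, Ddx3y and Eif2s3y, lie on the Y chromosome and are described with the sex-linked genes. The same fits had called 1238 (6.44%), 2151 (11.2%), 2738 (14.2%) and 678 (3.53%) genes in brain at 6, 24, 48 and 72 hr. In lung they called 824 (4.83%), 64 (0.375%), 102 (0.598%) and 33 (0.193%) at these times, and in heart 6854 (42.8%), 2594 (16.2%), 671 (4.19%) and 44 (0.275%).

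How small a residual could be bounded depended on the tissue. Of the 1238 genes called at 6 hr in brain, 531 (42.9%) had a 95% interval at 168 hr that lay within a log2 fold change of −1 to 1, and in heart 3453 of 6854 (50.4%) did. In lung 5 of 824 (0.607%) did. Of all genes tested, 53.8% in brain, 49.6% in heart and 0.223% in lung had such an interval. The share of the genes called at 6 hr was thus lower than that of all genes in brain and near it in heart. It is no measure of a return particular to these genes. The median standard error of a lung gene was 0.88 on the log2 scale, against 0.32 in brain and 0.36 in heart. A residual difference of 1 on the log2 scale in a typical lung gene was therefore not detectable with these libraries.

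The inflammatory gene groups followed the scores. Acute phase and metal-binding genes had a median log2 fold change of 4.61 at 6 hr and −0.05 at 168 hr in brain, 6.14 and −0.45 in heart, and 4.93 and −1.01 in lung. The mean level of these genes in brain was nonetheless higher in every library at 168 hr (2.21 to 3.04 log2 CPM) than at 0 hr (1.63 to 2.19), and their brain median was 0.40 within series 1 and 0.56 and 0.59 on 0 and 168 hr libraries with and without series. For chemokines and cytokines these medians were 4.97 and −0.12 in brain, 5.09 and −0.02 in heart, and 4.29 and −0.19 in lung. NF-kappaB feedback genes, which include inhibitors such as Nfkbia, went from 3.21 to −0.31, from 3.89 to −0.26 and from 2.37 to −0.42, and interferon-stimulated genes from 2.60 to −0.08, from 2.76 to 0.02 and from 1.94 to 0.10. None of the members of these 4 lists passed the test at 168 hr in any tissue. At an unadjusted p under 0.05, 1 of 25 chemokine genes was higher in brain and 1 of 25 in heart, near the shares of all genes (2.89% and 3.13%). In lung 5 of 25 chemokine genes and 3 of 20 NF-kappaB feedback genes were lower, against 2.11% of all genes. Over 6 fits the 168 hr medians of these lists took either sign, except that acute phase genes (−1.13 to −0.18) and chemokines (−0.88 to −0.04) in lung and NF-kappaB feedback genes in heart (−0.46 to −0.03) stayed below 0.

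Lcn2, an iron-binding acute phase protein, showed the return in single libraries and was chosen after its values were seen. In brain its level at 0 hr was 4.47, 4.76, 5.4, 4.69 and 2.66 log2 CPM, its median at 6 hr was 12.59, and at 168 hr it was 6.06, 4.83, 5.87 and 6.54. Of the 4 libraries at 168 hr, 3 lay above every 0 hr library, but the fitted log2 fold change with library series was 0.07 (SE 0.93). In heart Lcn2 was at 4.21, 3.04, 4.40, 4.05 and 3.90 log2 CPM at 0 hr and at 3.63, 3.57, 4.79 and 4.28 at 168 hr, after a median of 12.40 at 6 hr. The heart groups overlapped.

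Saa3, an acute phase serum amyloid, differed widely between libraries at 168 hr and was singled out after its values were seen. In brain it was at 4.71, 0.02, 3.27 and 1.73 log2 CPM at 168 hr, against −2.33 to 1.15 at 0 hr and a median of 10.63 at 6 hr. In heart it was at 1.86, −1.80, 0.55 and −1.55, against −1.89 to −1.03 at 0 hr. Replicates 1 and 4 were the highest at 168 hr in brain, lung and heart, and in each tissue the 2 replicate numbers come from the same 2 mice. The brain difference was 2.94 (SE 1.17, adjusted p = 0.903 by edgeR's quasi-likelihood test). In lung the groups overlapped, at 1.12 to 6.30 at 0 hr and −0.31 to 6.02 at 168 hr.

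In lung, the neutrophil chemokine Cxcl1, also chosen after its values were seen, was at 2.84, 2.43, −1.10 and −0.70 log2 CPM at 0 hr and at −0.69, −2.49, −1.77 and −1.41 at 168 hr. The 2 highest 0 hr libraries, replicates 1 and 2, had 18.8% and 19.2% of their reads on genes. The fitted log2 fold change was −4.86 (SE 1.16, adjusted p = 0.426). Ccl2, Ccl7, Cxcl5 and Il6, which encode further chemokines and a cytokine, had values from −5.05 to −2.46 in the same fit and none of them passed the threshold. Whether the low share of reads on genes had a part in these lung differences was not tested.

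Genes that the study had followed over its time course overlapped their 0 hr range in each tissue, except Rnd1 in lung and Kdr in heart. Rnd1, a GTPase induced by LPS, was at 3.82 to 4.52 log2 CPM at 0 hr in brain, had a median of 9.17 at 6 hr, and was at 4.54, 3.40, 3.66 and 4.19 at 168 hr. In lung Rnd1 was at 3.83, 3.23, 3.57 and 2.99 at 0 hr and at 2.66, 2.48, 2.70 and 2.73 at 168 hr. These lung groups did not overlap, as for 1.85% of all genes in that direction, and the log2 fold change was −1.72 (SE 0.80, adjusted p = 0.9996). Pfkfb3, which makes an activator of glycolysis, was at 6.05 to 6.40 at 0 hr in heart, had a median of 11.30 at 6 hr, and was at 6.00, 6.33, 6.26 and 5.98 at 168 hr. Ccl11, the eosinophil chemokine eotaxin, had a median of 6.01 at 6 hr in brain and was at −3.36 to −1.11 at 168 hr, against −1.96 to −1.11 at 0 hr.

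The transport and identity genes of brain and lung ECs that the study had followed were near their 0 hr levels. Slc2a1, the glucose transporter of the blood-brain barrier, was at 10.54, 11.41, 11.97 and 11.88 log2 CPM at 168 hr in brain, against 10.20 to 11.48 at 0 hr. Vwa1, a matrix protein, was at 8.74 to 8.98 in brain against 8.03 to 9.09. Foxf1, a transcription factor of lung ECs, had a median of 4.25 at 6 hr in lung and was at 7.55, 8.93, 9.28 and 9.35 at 168 hr, against 6.84 to 9.24 at 0 hr. Cav1, which builds caveolae, was at 9.52 to 10.71 in lung against 7.31 to 11.17, where 0 hr replicate 4 alone lay above the 168 hr libraries. Ly96, the co-receptor of Toll-like receptor 4, was at 3.71 to 4.34 in lung against 3.71 to 4.70, and Casp6, an apoptosis protease, was at 4.28 to 5.07 in lung against 3.32 to 5.13. The groups overlapped for each of these genes. Tspan8, a tetraspanin, was at 7.21, 8.17, 7.62 and 8.44 in lung against 6.37 to 7.50, and overlapped through 168 hr replicate 1 only.

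Of the 3 lists of tissue-specific endothelial genes, each read in its own tissue, that of heart had a median with the same sign in all 6 fits. It includes genes of fatty acid uptake. Its median log2 fold change in heart was −1.08 at 6 hr, −0.13 at 72 hr and −0.50 at 168 hr, and at 168 hr it lay between −0.52 and −0.37 over the 6 fits. Its mean level overlapped, at 8.53 to 8.88 log2 CPM at 0 hr and 8.04 to 8.64 at 168 hr. The brain list in brain was at 0.46 but at −0.03 within series 1, and the lung list in lung was at 0.52 but at −0.06 within series 1. Of 29 heart list members, none passed the adjusted threshold and 5 were lower at an unadjusted p under 0.05, against 1.11% of all heart genes. They were Fabp4, Car4, Pnpla2, Dhrs3 and Sgk1. Of the list, 3 members were lower without overlap, against 1.88% of all heart genes. The pan-endothelial list in heart, with a median of −0.21 (−0.25 to −0.06 over the 6 fits), averaged 9.24 to 9.43 log2 CPM at 0 hr and 9.10 to 9.21 at 168 hr, without overlap. Read in heart, the lung list was at −0.37 (−0.53 to −0.16) and the brain list at 0.03 (−0.165 to 0.09). The lung and heart lists share members such as Cd36 and Car4. A median below 0 in heart was thus not particular to the heart list.

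Fabp4, a fatty acid binding protein chosen here after its values were seen, was at 14.28, 14.06, 14.09, 13.83 and 13.94 log2 CPM at 0 hr and at 13.46, 13.25, 13.78 and 13.44 at 168 hr in heart. Every 168 hr library lay below every 0 hr library, as for 1.88% of all heart genes. The log2 fold change was −0.63 (SE 0.30, adjusted p = 0.985). Kdr, the main VEGF receptor, was at 10.70, 11.08, 10.83, 11.15 and 10.77 at 0 hr and at 10.66, 10.27, 10.46 and 10.46 at 168 hr in heart, again without overlap, and differed by −0.50 (SE 0.28, adjusted p = 0.985). Cd36, a fatty acid translocase, was at 12.44 to 13.14 at 0 hr and at 12.01, 11.57, 12.77 and 12.36 at 168 hr, with overlap.

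**Figure D2:**
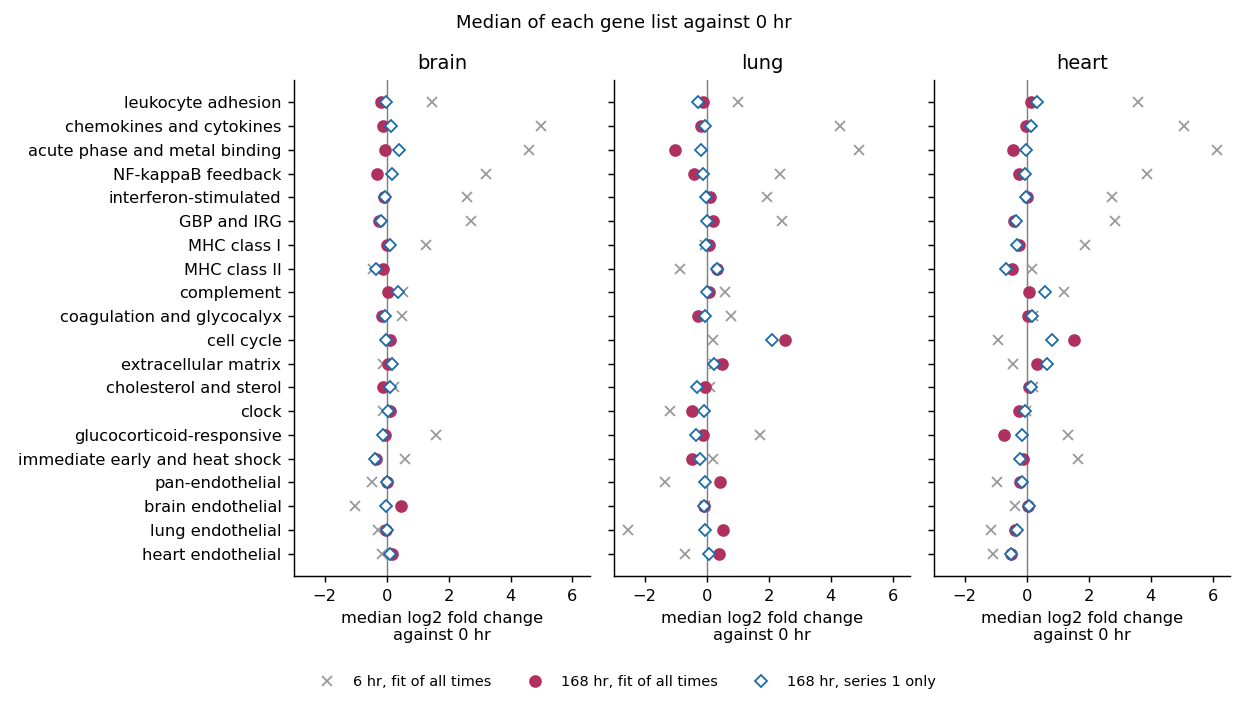
Median log2 fold change against 0 hr (horizontal axis) of 20 gene lists (vertical axis) in brain, lung and heart. Crosses are 6 hr and filled circles 168 hr in the fit of all times, and open diamonds are 168 hr within library series 1. Most lists lie near 0 at 168 hr, and the cell cycle list lies at 2.53 in lung and 1.51 in heart.

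Among the 20 lists plotted, the median farthest from 0 at 168 hr was that of genes of cell division, in lung and in heart. Lists of cell types and of sex-linked genes were not plotted, and some lay farther from 0. In heart, T and NK cell markers (4 tested) had a median of 2.51 (0.12 to 2.51 over 6 fits). Erythroid markers (5 tested) were at 2.17 there (0.52 to 3.33). The cell cycle list holds 36 genes that are expressed in dividing cells, of which 35 were tested in each tissue. Its median log2 fold change at 168 hr was 2.53 in lung and 1.51 in heart but 0.11 in brain, beside medians of −0.0016, −0.0036 and 0.09 over all genes tested. In lung 32 and in heart all 35 tested members lay above 0. None passed the adjusted threshold. At an unadjusted p under 0.05, 21 members were higher in lung, against 1.44% of all genes, and 27 were higher in heart, against 3.13%. In brain 1 member was, against 2.89%.

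Single libraries showed the same. The mean level of the list in lung was 2.01, 1.36, 1.99 and 2.10 log2 CPM at 0 hr and 4.22, 3.38, 4.37 and 3.61 at 168 hr, without overlap. In heart it was 4.86, 4.26, 3.73, 4.71 and 4.61 at 0 hr and 4.88, 5.67, 5.65 and 5.67 at 168 hr, where replicate 1 was level with the highest 0 hr library. In brain it was 0.95, 1.00, 0.83, 0.92 and 1.14 at 0 hr and 1.61, 1.11, 1.09 and 1.04 at 168 hr, and the groups overlapped. Of single members 20 were higher without overlap in lung, against 3.22% of all genes, and 10 in heart, against 2.37%. Within library series 1 the median of the list was 2.11 in lung, 0.81 in heart and −0.02 in brain. Without the series 1 mouse labelled 6 hr it was 2.56, 1.46 and 0.06, and without heart 72 hr replicate 1 the heart median was 1.30.

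The time courses of the list differed in shape. In brain the median library rose from 0.95 log2 CPM at 0 hr to 3.5 at 72 hr, when 31 of the 35 genes were called higher against 2.98% of all genes, and stood at 1.10 at 168 hr. In heart the list had a median log2 fold change of −0.92 at 6 hr, when 14 of 35 members were called lower against 20.3% of all heart genes, and −1.27 at 48 hr and −0.95 at 72 hr before 1.51 at 168 hr. In lung the medians from 6 to 168 hr were 0.20, 0.26, 1.21, 1.66 and 2.53, with no member called at any of these times. A difference in shape between the tissues was not tested for the list as a whole. The times also differed in Y-linked transcripts, which are described further on. In each tissue these lay above Xist in all 6 libraries at 48 hr and in 0 of 4 at 72 hr and at 168 hr. Their part in the shapes was not tested.

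**Figure D3:**
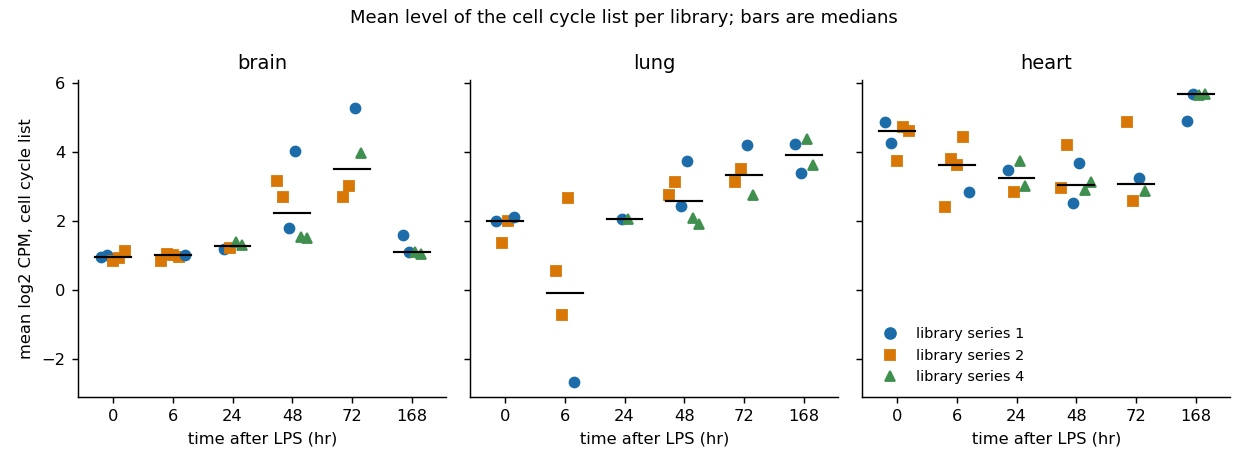
Mean log2 CPM of the cell cycle list (vertical axis) in each library by time after LPS (hr, horizontal axis) in brain, lung and heart. Bars are medians and symbols mark the library series. In lung the 4 libraries at 168 hr (3.38 to 4.37) lie above the 4 at 0 hr (1.36 to 2.10), in heart 3 of 4 do so clearly, and in brain the list peaks at 72 hr.

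Within the list, fitted values differed by role, in a split that was made after the values were seen. The 10 genes of DNA replication and nucleotide supply, which are Mcm2 to Mcm7, Pcna, Rrm1, Rrm2 and Tyms, had a median of 0.54 in lung (−0.19 to 2.90) and 0.52 in heart (0.22 to 1.29). The highest of the 10 in both tissues was Rrm2, a subunit of ribonucleotide reductase. The G1 cyclins Ccnd1, Ccne1 and Ccne2 had a median of 1.55 in lung and 1.03 in heart. The other 22 genes, mostly of mitosis, had a median of 3.42 in lung (1.78 to 5.19) and 1.63 in heart (0.96 to 1.99). In brain at 72 hr 9 of the 10 replication genes and 21 of these 22 were called higher. The difference between the parts was not tested. The upstream sequences of 3 of the 12 mitotic genes called in the mean of the 3 tissues, described further on, are shown because they are the ones that hold both of the motifs searched. They are the 250 bases before the transcript start from RefSeq (GRCm38.p6), written in the direction of the gene, 5′ to 3′, and for Prc1 the one of its 2 annotated starts whose window holds TTTGAA is shown. Capitals mark CCAAT, the core of the box bound by NF-Y, and TTTGAA, the element bound in cell cycle promoters by the MuvB complexes, each on either strand (ATTGG and TTCAAA), and matches to both strands can share bases.
Top2a, chr11:99024190-99024439, minus strand: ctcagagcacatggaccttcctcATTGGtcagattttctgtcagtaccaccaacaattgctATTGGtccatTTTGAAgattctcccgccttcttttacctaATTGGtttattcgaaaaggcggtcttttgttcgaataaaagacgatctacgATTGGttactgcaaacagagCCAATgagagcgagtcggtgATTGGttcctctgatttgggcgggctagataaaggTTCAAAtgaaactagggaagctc
Prc1, chr7:80294226-80294475, plus strand: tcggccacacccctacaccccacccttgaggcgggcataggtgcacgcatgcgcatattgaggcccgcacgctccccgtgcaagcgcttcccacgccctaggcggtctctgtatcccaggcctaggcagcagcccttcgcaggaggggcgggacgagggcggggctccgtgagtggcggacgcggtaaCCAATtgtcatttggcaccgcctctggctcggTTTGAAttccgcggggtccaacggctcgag
Ube2c, chr2:164769679-164769928, plus strand: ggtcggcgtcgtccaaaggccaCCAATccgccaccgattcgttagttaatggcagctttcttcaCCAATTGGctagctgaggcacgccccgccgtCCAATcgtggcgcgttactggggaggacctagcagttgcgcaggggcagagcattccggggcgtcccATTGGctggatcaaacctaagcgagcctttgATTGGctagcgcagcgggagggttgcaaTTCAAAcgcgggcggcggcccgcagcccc

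These windows hold 6 CCAAT and 2 TTTGAA matches in Top2a, 1 and 1 in Prc1, and 6 and 1 in Ube2c. CCAAT was found in 27 of 31 upstream windows of the cell cycle list (87.1%), against 33.8% of all 32851 windows, and TTTGAA in 9 (29%) against 16%. Both were present in 29% against 5.55%. Of the 11 windows found for 10 of the 12 mitotic genes, 8 held CCAAT (72.7%) and 3 held TTTGAA (27.3%), and those of Nusap1, Cenpp and Sapcd2 held neither. A match is a description of the letters and not a bound site.

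Top2a, which encodes DNA topoisomerase II alpha and lies at chr11:98992943-99024189 (mm10), was at 0.07, 0.81, 0.33 and 2.12 log2 CPM at 0 hr in lung and at 5.23, 4.52, 5.73 and 4.63 at 168 hr. Every 168 hr library lay above every 0 hr library. The log2 fold change was 4.61 (SE 1.01, adjusted p = 0.382 by edgeR's quasi-likelihood test). In heart it was at 5.94, 5.19, 4.60, 5.98 and 5.63 at 0 hr and at 5.88, 7.01, 7.12 and 7.08 at 168 hr, with 3 of 4 libraries above all at 0 hr, and differed by 1.68 (SE 0.65). In brain it was at −0.43 to 0.65 at 0 hr and at 1.74, −0.27, −0.47 and −0.28 at 168 hr, with replicate 1 alone above the 0 hr range.

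Prc1, a microtubule-bundling protein of the dividing spindle at chr7:80294450-80316259 (mm10), was at 2.04, 1.56, 2.31 and 2.22 log2 CPM at 0 hr in lung and at 5.13, 4.09, 5.62 and 4.39 at 168 hr. In heart it was at 5.49, 4.60, 4.12, 5.29 and 5.08 at 0 hr and at 5.19, 6.56, 6.71 and 6.71 at 168 hr. The lung groups did not overlap, and in heart replicate 1 at 168 hr lay among the 0 hr libraries. The log2 fold changes were 3.44 (SE 0.87) in lung, 1.86 (SE 0.71) in heart and 1.52 (SE 0.78) in brain. Mcm5, a helicase subunit loaded at replication origins, was at 3.35, 2.97, 2.98 and 2.46 at 0 hr and at 3.63, 3.08, 2.90 and 2.83 at 168 hr in lung, with overlap and a difference of 0.22 (SE 0.81).

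Other properties of the libraries moved with the lung groups. Lung 0 hr replicates 1 to 3 had 18.8% to 28.6% of reads on genes, and 3 of the 4 lung libraries at 168 hr had over 50%. Lung 0 hr replicate 4, at 56.2% and without Y-linked transcripts, had a list level of 2.10, against 3.38 to 4.37 in the 168 hr libraries above 50%. The 3 thus lay above it, but 1 library at 0 hr gives no test. Summed markers of leukocytes overlapped between the lung groups. Summed B and plasma cell markers were at 215 to 1330 CPM at 0 hr and 570 to 1270 at 168 hr over 15 genes, and 3 of 14 tested genes were higher at an unadjusted p under 0.05 against 1.44% of all lung genes, among them Ighm, the heavy chain of IgM, and Mzb1. In the fit with library series the median of these 14 genes was 0.845 with 13 above 0, and it was 0.41 within series 1 and −0.71 with a term for Y-linked transcripts. Summed T and NK cell markers were at 32.2 to 73.6 and 21.4 to 94.9 CPM over 14 genes, and neutrophil markers at 75 to 468 and 41.4 to 369 over 14 genes, with Elane at 0 at 168 hr. In heart these 3 sums at 168 hr were at most 9.22, 5.86 and 6.64 CPM, and 7 erythroid markers summed to 3.68 to 88.9 CPM at 0 hr and 8.62 to 275 at 168 hr. Their part in the cell cycle difference was not tested.

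The mean of the 3 differences was tested in 1 fit of all 80 libraries kept. That fit treated libraries of 1 mouse as independent, and limma-voom with the mouse as a random effect called 0 genes. This mean can pass on 1 tissue alone, so a call does not show a direction shared by the 3. Genes of mitosis were the main named group on the higher side, and Y-linked genes made up most of the lower side. The fit called 33 of 22007 genes (0.15%), 25 higher (0.114%) and 8 lower (0.0364%), with 2070 at an unadjusted p under 0.05. Of the cell cycle list, 6 were called higher. They were Prc1, Top2a, Kif20a, a kinesin of the midzone, Ube2c, an enzyme that marks cyclins for degradation, Cenpf, a kinetochore protein, and Nusap1, a spindle protein. A further 6 called genes with known roles in or links to division, Cenpp, Sapcd2, Spag5, Cdca3, Pimreg and Spc25, are not on the list and were grouped after the result was seen.

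The mean log2 fold change was 2.30 (SE 0.44, adjusted p = 0.00728) for Prc1, 2.4 (SE 0.50, adjusted p = 0.0244) for Top2a and 2.78 (SE 0.58, adjusted p = 0.0244) for Kif20a, by edgeR's quasi-likelihood test with Benjamini-Hochberg adjustment. The fitted value was largest in lung for each of the 12 genes, at 2.45 (Nusap1) to 6.21 (Cenpp), and lay between 1.57 (Cdca3) and 1.98 (Sapcd2) in heart. In brain it was near 0 for Spc25 (0.02), Spag5 (0.07), Cenpf (0.15), Cenpp (0.19) and Nusap1 (0.24) and at most 1.68 (Ube2c), and Kif20a alone of the 12 had an unadjusted p under 0.05. Kif20a was at −0.82, −1, −0.79, −1.73 and −1.76 log2 CPM at 0 hr in brain and at 0.30, 0.80, −0.61 and −0.16 at 168 hr, without overlap, as for 1.06% of brain genes in that direction. In heart it was at 2.62 to 4.02 at 0 hr and at 4.01, 4.97, 5.14 and 5.18 at 168 hr. In lung Kif20a had counts in 1 of 4 libraries at 0 hr, at most 40, and 73 to 639 counts at 168 hr. Its fitted lung value of 5.11, which enters the mean, thus rests in part on the floor. With Fyb and Cdk5rap1, Kif20a was 1 of 3 genes, of 14502 tested in each tissue, higher at an unadjusted p under 0.05 in all 3. Lower in this way were 5 genes, all on the Y chromosome. Within library series 1 and with a term for Y-linked transcripts, 0 genes were higher in all 3. On 0 and 168 hr libraries the genes were Cenpm and Cirbp with series, and without series 9 that included Kif20a and Cdk5rap1. Without the series 1 mouse labelled 6 hr they were 5, the 3 named here among them.

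Cdk5rap1, an enzyme that modifies mitochondrial tRNAs, was at 3.14, 3.03, 3.19, 3.05 and 3.47 log2 CPM at 0 hr in brain and at 3.93, 4.45, 4.01 and 3.62 at 168 hr, without overlap. In lung it was at 0.07, 1.74, −1.68 and 2.63 and then at 2.97, 4.30, 3.75 and 3.34, again without overlap, and in heart at 2.79 to 4.20 and then 3.79 to 5.22. Its mean log2 fold change was 1.75 (SE 0.38, adjusted p = 0.0304). Fyb, an adaptor protein of leukocytes and platelets, was at −0.32 to 0.95 at 0 hr in brain and at 0.98, 1.51, 1.06 and 1.06 at 168 hr, and had a mean log2 fold change of 1.56 (SE 0.34, adjusted p = 0.0304). In lung its groups overlapped, with means of 1.44 at 0 hr and 1.58 at 168 hr, whereas the fit with library series gave 1.65. At 168 hr lung replicate 1 was at 4.08 and the other libraries at 0.17 to 1.36.

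**Figure D4:**
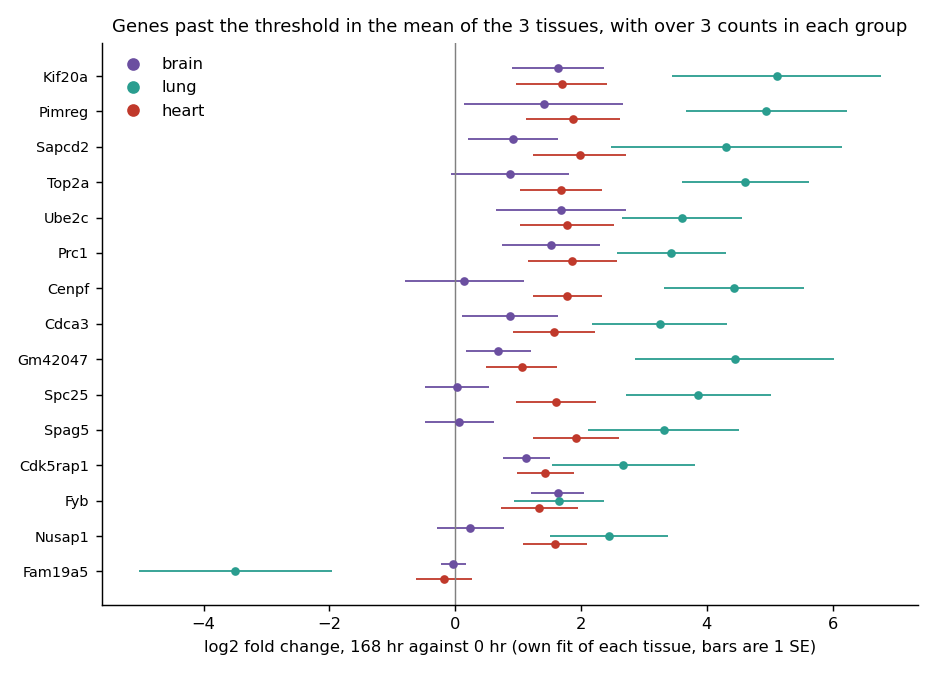
Log2 fold change at 168 hr against 0 hr (horizontal axis) of the genes past the threshold in the mean of the 3 tissues that had over 3 counts in at least 1 library of each group in each tissue (vertical axis). Points are the separate fits of brain, lung and heart, and bars are 1 SE. Prc1, Top2a and Kif20a lie to the right of 0 in each tissue, farthest in lung, and Fyb lies at 1.63, 1.65 and 1.34.

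These calls did not hold in every fit. Within library series 1 the mean called 0 genes, with 479 at an unadjusted p under 0.05. It called 0 genes with a term for Y-linked transcripts and 0 with limma-voom and the mouse as a random effect, where libraries of 1 mouse had a correlation of 0.119, and DESeq2 called 298. With the replicate number as a block, which does not mark the same mouse, the 4 calls left were Y-linked. Leaving out the libraries of 1 replicate number gave 6 to 782 calls, with 782 without 0 hr replicate 4 and 6 without 0 hr replicate 2 or 168 hr replicate 4. In lung, 0 hr replicate 4 is the 1 library at 0 hr without Y-linked transcripts and with over 50% of reads on genes. All 12 mitotic genes lay above 0 in the mean in each of these fits. They were picked because the same mean called them higher, and the fits reuse its libraries, so this sign is no separate support. Of the higher calls, Rnf17, Gm47572, Gm37885, Plcxd1, Mdk-ps1, Myoz1 and the mitotic gene Cenpp had 0 counts in the 4 lung libraries at 0 hr and at most 3, 13, 2, 6, 5, 18 and 25 counts at 168 hr, and G730003C15Rik had at most 1 count and then 2 to 47, so that their fitted fold changes are no bound.

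Of the 14502 genes tested in each tissue, 3130 were above 0 and 2403 below 0 in all 3, which together is 38.2%. As a description, the log2 fold changes correlated with r = 0.437 between brain and heart, 0.29 between lung and heart and 0.232 between brain and lung. Within library series 1 these were 0.32, 0.192 and 0.0725 over 12030 genes, and with a term for Y-linked transcripts 0.139, 0.201 and −0.0271. The tissues share mice and library series, and genes are not independent replicates.

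The lower genes of this mean were led by genes of the Y chromosome, and the 2 groups differed in sex-linked transcripts. Ddx3y, Eif2s3y, Kdm5d and Uty encode ubiquitous proteins from the Y chromosome, and Xist silences 1 X chromosome in female cells. In brain the 4 Y-linked genes summed to 188, 187, 84.0, 80.1 and 0.135 CPM at 0 hr, and to at most 0.0608 CPM at 168 hr. In heart 4 of 5 libraries at 0 hr had 150 to 242 CPM, and in lung 3 of 4 had 173 to 217, whereas no library of these tissues at 168 hr was above 0.213 CPM. The 4 libraries per tissue at 168 hr had Xist, at 123 to 317 CPM in brain, 16.1 to 257 in lung and 11.4 to 31.0 in heart. The mice at 168 hr thus lacked Y-linked transcripts, and most of those at 0 hr had them. The labels give no sex.

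The mean of the 3 tissues called Ddx3y (adjusted p = 5.36e-06 by edgeR's quasi-likelihood test), Eif2s3y, Uty, Kdm5d and Gm29650 lower, all on the Y chromosome, and 3 other genes, Fam19a5, Pgbd5 and AC061963.1, which had at most 41, 10 and 10 counts in a lung library at 0 hr. The lung fit called Ddx3y (adjusted p = 0.000126) and Eif2s3y (adjusted p = 0.0242). No fold is given for the Y-linked genes because the 168 hr libraries were at or near the floor. Sex and time cannot be told apart for most of the 0 hr libraries. In the 1 library per tissue at 0 hr without Y-linked transcripts, the cell cycle list was at 1.14 log2 CPM in brain, 2.10 in lung and 4.61 in heart, against 1.04 to 1.61, 3.38 to 4.37 and 4.88 to 5.67 at 168 hr. With a term for Y-linked transcripts the medians of the list were 0.14, 2.91 and 1.53. Libraries with these transcripts above and below Xist occurred together only at 0, 6 and 24 hr in brain and heart, and at 0 and 6 hr in lung.

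**Figure D5:**
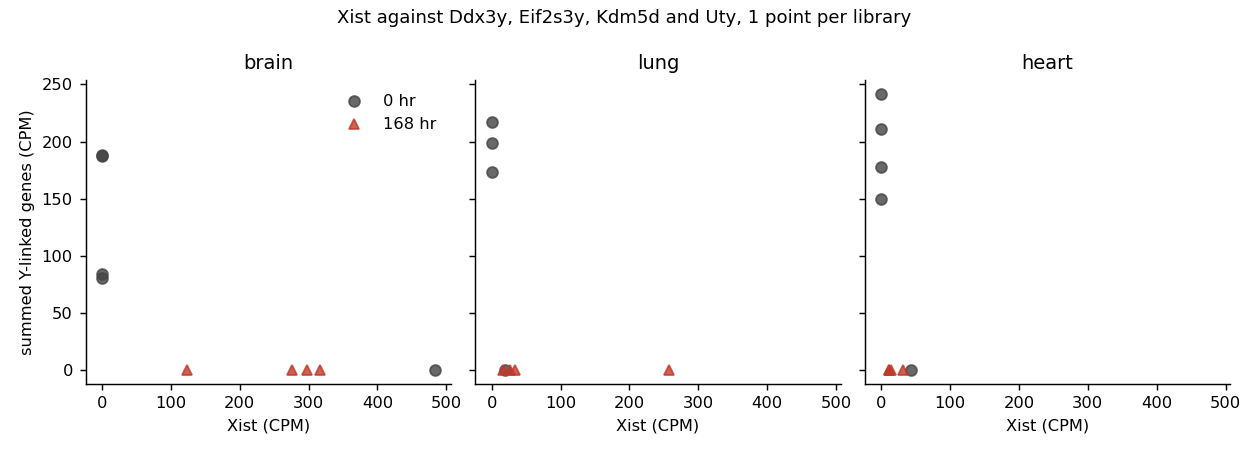
Summed Ddx3y, Eif2s3y, Kdm5d and Uty (CPM, vertical axis) against Xist (CPM, horizontal axis) in each library at 0 hr (circles) and 168 hr (triangles) in brain, lung and heart. All 168 hr libraries lie on the horizontal axis, and 1 library per tissue at 0 hr lies there with them.

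Tests of the difference between tissues called few genes, at low levels. Brain less lung called 18 of 22007 genes (0.0818%), 7 higher (0.0318%) and 11 lower (0.05%). Lung less heart called 9 (0.0409%), 8 higher (0.0364%) and 1 lower (0.00454%), and brain less heart 0. For brain less heart 263 genes had an unadjusted p under 0.05, DESeq2 called 93 and limma-voom with the mouse as a random effect 0. None of the called genes averaged 3 log2 CPM or more over the libraries compared, the highest being 2.73 for brain less lung. The 18 include the muscle genes Myh8 and Tnnc2, named after their values were seen, which had 0 counts in the 4 lung libraries at 0 hr and 0 to 945 and 1 to 228 counts at 168 hr. They also include Slc4a10, a gene of neurons, with up to 25 counts at 0 hr in lung and 0 at 168 hr. Top2a differed by −3.69 (SE 1.30, adjusted p = 0.435) between brain and lung in this test, so that a difference between these tissues was not called.

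Immediate early and heat shock genes, which respond within minutes to growth signals and stress, were on the lower side. The 29 tested had a median of −0.47 in lung, −0.33 in brain and −0.11 in heart, and it stayed below 0 in each tissue over 6 fits (−0.53 to −0.19, −0.41 to −0.04 and −0.21 to −0.11). None of the 29 passed the threshold. In brain 5 were lower at an unadjusted p under 0.05 against 1.41% of all genes, among them Fos, Egr1 and Nr4a1, which are transcription factors, and Dusp1, a MAP kinase phosphatase, all named after their values were seen. Egr1 in brain was at 5.96, 6.68, 6.49, 8.23 and 6.80 log2 CPM at 0 hr and at 5.75, 5.09, 5.25 and 5.81 at 168 hr, without overlap, as for 0.775% of all genes in that direction. Its difference was −0.96 (SE 0.42, adjusted p = 0.903). Neurons also use these genes, and the summed level of 16 neuron markers in brain was 2750 to 10200 CPM at 0 hr (median 8780) and 1700 to 6620 at 168 hr (median 2060). In the fit with library series the neuron markers had a median of 0.14 in brain, with 15 of 16 above 0, and of 0.31 within series 1, against −1.15 on 0 and 168 hr libraries without series. The part of neuronal RNA in this difference was not tested.

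Markers of microglia and macrophages had a median of 0.77 in brain and 0.93 in heart, where 4 of 16 and 7 of 15 were higher at an unadjusted p under 0.05, against 2.89% and 3.13% of all genes, and none passed the threshold. The median moved to −0.77 in brain and 0.13 in heart when only 0 and 168 hr libraries were fitted without library series. Their summed level overlapped, at 188 to 383 CPM at 0 hr and 181 to 345 at 168 hr in brain, and 61.7 to 112 and 56.0 to 179 in heart. Extracellular matrix genes had medians of 0.06, 0.48 and 0.34 in brain, lung and heart. Over 6 fits these medians stayed above 0 in each tissue (0.06 to 0.48, 0.11 to 0.52 and 0.30 to 0.65). Above 0 were 22, 29 and 30 of the 38 members, and the median of all genes in brain was 0.09. In heart 2 of 38 members were higher at an unadjusted p under 0.05, a share near the 3.13% of all genes. They were Col6a3, a chain of collagen VI, and Postn, a matrix protein of healing tissue. Col6a3 differed by 1.11 (SE 0.33, adjusted p = 0.985) without overlap, as for 2.37% of heart genes.

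The other lists of the LPS response, metabolism and vessel function had no called member at 168 hr. Interferon-inducible GTPases (the GBP and IRG families) had a median of 2.84 at 6 hr and −0.40 at 168 hr in heart, and −0.58 to −0.22 over 6 fits. MHC class I genes, which present peptides to CD8 T cells, went from 1.87 to −0.24 in heart (−0.33 to −0.08), so that both groups lay slightly below 0 there. In brain these 168 hr medians were −0.24 and 0.00033 and in lung 0.19 and 0.08. Glucocorticoid-responsive genes had a median of −0.72 in heart (−0.76 to −0.0013 over 6 fits), −0.04 in brain and −0.11 in lung. In heart 3 of 20 were lower at an unadjusted p under 0.05, against 1.11% of all genes, namely Dusp1, Plin4, a lipid droplet protein, and Sgk1, a kinase, at −0.96 (SE 0.40), −0.73 (SE 0.35) and −0.81 (SE 0.34). Complement genes had medians of 0.06, 0.07 and 0.09 in brain, lung and heart, and leukocyte adhesion genes −0.17, −0.11 and 0.14.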

How the data were processed

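RNA bound to HA-tagged EC ribosomes was sequenced from brain, lung and heart. The authors aligned reads with STAR 2.4.2 to mm10 and counted them with HTSeq 0.6.1, and deposited raw counts per gene for 217 runs. The annotation release and the strand setting are not given in the sources used here. The counts of all runs of 1 library were summed, giving 98 libraries with 52550 genes, of which 52403 were matched to a symbol. The 18 libraries under 3% of reads on genes, all of library series 3, were left out (at most 2.75%, against at least 3.4% in those kept), among them 6 of the 0 and 168 hr libraries. Library series and mouse were read from the file names, not the labels. Nothing used here says that replicates come from separate litters or days, so p-values measure the spread between these samples.

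Tests used edgeR 4.0.16 (R 4.3.3), quasi-likelihood, TMM scaling, filterByExpr, with time and library series as terms over all 6 time points in each tissue, and 1 joint fit of the 3 tissues for the mean and the differences. The joint fit treated libraries of 1 mouse as independent. Calls had an adjusted p (Benjamini-Hochberg) under 0.05. Levels were computed as log2 CPM (prior count 2), and a fold change is on that log2 scale. "No overlap" means that the lowest library of 1 group lies above the highest of the other. Alternatives were limma 3.58.1 (voom), DESeq2 1.42.0, ComBat (sva 3.50.0), other scalings, filters, samples and covariates, a replicate block and leaving out each replicate. In the joint fit, leaving out a replicate number kept the dispersions, the estimates of spread per gene, of the fit with all libraries. The 6 fits behind a list's range are that with library series over all times, series 1 alone, 0 and 168 hr libraries with and without series, and all times with a term for Y-linked transcripts or without the series 1 mouse labelled 6 hr. Counting intervals and floors cover counting error only. Tests were also run on simulated counts, drawn with the same spread for every gene and no effect of library series, mouse or sex. That run does not cover these features of the data. Figures used Python 3.11.15 with numpy 2.4.6, pandas 2.3.3 and matplotlib 3.10.9. Promoters and gene positions are from RefSeq and the mm10 annotation.

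Named genes were the called genes of each tissue with a mean of at least 3 log2 CPM and no overlap, the 10 genes in each direction with the smallest p of the mean, list members called at 168 hr, genes the study followed, and the leading tissue differences with a mean of at least 3 log2 CPM. Others are said to be chosen after their values were seen, as were members named for their unadjusted p. The samples, gene lists and tests were chosen with earlier results of these data known. Some genes of the lists and calls are not reported here by name.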

Additional observations from a re-analysis of the deposited data

Results flagged for a closer look

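In 15 groups of 4 to 10 libraries, the highest or lowest library was compared with the others by Dixon's test, which by chance marks about 1 in 20 groups. In brain at 6 hr, replicate 6 had a response score of 0.147, where the others lay between 3.69 and 4.85. In heart at 6 hr, replicate 5, from the same mouse by the file names, had a score of −0.264, where the others lay between 3.1 and 4.39. In both groups the other libraries had taken part in choosing the genes of the score and this mouse had not. The rate of 1 in 20 therefore does not hold for these groups. The mean log2 CPM of the cell cycle list was 1.61 in brain 168 hr replicate 1, where the others lay between 1.04 and 1.11. It was 1.36 in lung 0 hr replicate 2, where the others lay between 1.99 and 2.1, and 4.88 in heart 168 hr replicate 1, where the others lay between 5.65 and 5.67. Brain and heart 168 hr replicate 1 come from 1 mouse, whose list level was the highest at 168 hr in brain and the lowest in heart. The causes were not tested.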

How the results depend on the processing

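Counts of called genes at 168 hr moved with the processing. Brain, lung and heart gave 3, 0 and 2 genes within library series 1, 9, 38 and 17 without the low-count filter and 2, 30 and 2 by DESeq2. In lung, where the count was 2, it was 0 on 0 and 168 hr libraries alone with or without library series, by limma-voom and with a term for Y-linked transcripts. It was 1 without the series term, with all libraries, with at least 1000000 counts, with RLE scaling and without the series 1 mouse labelled 6 hr, and 10 by ComBat. Leaving out 1 replicate gave 0 to 0 genes in brain and heart and 1 to 4 in lung, with 4 without lung 0 hr replicate 4. The mean of the 3 tissues, 33 genes, gave 0 by limma-voom with the mouse as a random effect, 0 within series 1, 0 with the Y term, 0 on 0 and 168 hr libraries with series and 728 without, 7 without the series term, 56 by RLE, 257 with all libraries, 298 by DESeq2 and 343 without the filter. Leaving out 1 replicate number gave 6 to 782, with 782 without 0 hr replicate 4, 6 without 0 hr replicate 2 or 168 hr replicate 4, and 59 without 168 hr replicate 2.

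The differences brain less lung, lung less heart and brain less heart gave 0, 0 and 0 genes by limma-voom, 136, 141 and 93 by DESeq2, and, for the first 2, 233 and 241 with all libraries and 2 and 0 without the series term. Leaving out 1 number gave 4 to 1185, 0 to 1156 and 0 to 0, with both maxima without 0 hr replicate 4.

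The cell cycle median stayed above 0 in lung and heart under each alternative run. In lung it was 2.04 without the series term and 2.03 on 0 and 168 hr libraries without it, and in heart 0.81 on those libraries with series and 0.813 within series 1. Without 1 replicate it was −0.0663 to 0.214 in brain, 2.23 to 3.06 in lung (3.06 without 0 hr replicate 1) and 1.34 to 1.68 in heart. The return medians were −0.163 (higher genes) and 0.239 (lower genes) in brain from the fit of all libraries. With genes chosen at 24 hr they were −0.602 for lower genes in lung, where only 2 genes were chosen, and 0.0156 and −0.0373 for higher and lower genes in heart. Within ±0.5, 60 (4.85%), 1 (0.121%) and 360 (5.25%) of the genes called at 6 hr were bounded in brain, lung and heart. Of all genes tested, 12%, 0.0879% and 7.67% were. With the Y term, which takes up Y-linked genes by construction, the fitted values of Eif2s3y in lung (0.0083) and Gm29650 in the mean (0.30) turned in sign and say nothing of these genes. The sign also turned for Pgbd5 in the mean within series 1 (0.21) and on 0 and 168 hr libraries with series (0.20). Over 35 named genes and 757 pairs of gene and setting, 376 kept their side of the threshold, 377 did not and 4 turned. The causes were not tested. The Y term, the exclusion of the 6 hr mouse and of heart 72 hr replicate 1, the 0 and 168 hr fits of the mean and the choice of genes in lung were added after seeing the data.

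With the replicate number as a block, the calls were 0, 2 and 0 in brain, lung and heart, 4 for the mean, and 12, 3 and 0 for the 3 differences, and the cell cycle medians were 0.105, 2.69 and 1.26. Deviations of same-numbered 0 and 168 hr libraries correlated between −0.5 and 0.39, so the numbers did not pair the libraries.

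In the shallowest library, of lung, 3 counts stood for 0.818 CPM. In each tissue only 2 libraries against 2 share a library series, and sex-linked transcripts moved with time.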
